A study of Mus musculus with 6 samples.

Results

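The interferon regulatory factors (IRFs) are a family of transcription factors, and 7 genes of the family, Irf1, Irf2, Irf3, Irf4, Irf5, Irf7 and Irf8, were followed in RNA of B16 mouse melanoma cells. They were taken by symbol from GENCODE release M21 and are 7 of the 55335 genes in the count tables. The scrambled control group holds 3 cultures of B16 cells transduced with Cas9 and a guide RNA against GFP, and their genotype is given as WT. The IFNγR1KO group holds 3 cultures of cells transduced with Cas9 and a guide against the first exon of Ifngr1, the ligand-binding chain of the receptor for IFN-γ. Cells of both groups were selected with puromycin and seeded overnight in triplicate, and the study's methods name no interferon in the preparation of RNA for sequencing. The knockout clones had earlier been screened by their PD-L1 after stimulation with IFN-γ. The IFNγR1KO cells of the study are single clones, and it is not given whether all 3 cultures come from the same clone, so a difference between the groups cannot be told apart from a difference between clones. The replicates are cultures of a cell line, and p-values measure the spread between these cultures.

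IRFs share a DNA-binding domain at the N terminus that recognises GAAA repeats, as found in the interferon-stimulated response element (ISRE). IFN-γ activates JAK1 and JAK2 at its receptor, the signal reaches gamma-activated sites (GAS) in the DNA, and Irf1 is among the first genes switched on. IRF3 and IRF7 respond instead to kinases activated by viral nucleic acids, while IRF4 and IRF8 are best known from lymphocytes and myeloid cells, and IRF4 also works with MITF in melanocytes to drive the pigment gene Tyr.

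Among the IRF genes, Irf1 was lower in IFNγR1KO cells 1.501-fold, and Irf7 and Irf8, both already near the limit of detection in scrambled control cells, gave 1 count each over all 3 IFNγR1KO libraries. Irf3 and Irf5, the IRF genes with the most RNA per length, and Irf2 had no adjusted p under 0.05, and neither had Irf4. The scrambled control libraries held 9402640 to 10579788 counts on genes and the IFNγR1KO libraries 6698956 to 7409479. A single count was therefore worth 0.0966 to 0.109 CPM, the count scaled to library size, in scrambled control and 0.135 to 0.142 CPM in IFNγR1KO libraries. Ifngr1 itself had 154, 144 and 172 counts in scrambled control and 80, 85 and 82 in IFNγR1KO libraries. Its log2 fold change was -0.47 (SE 0.16, adjusted p = 0.0729, edgeR), so the targeted transcript was still counted in every IFNγR1KO library, and counts summed over the whole gene cannot tell an edited transcript from an intact one. The melanocyte markers Mitf, Sox10, Tfap2a, Tyr, Tyrp1, Dct, Pmel and Mlana were counted in every library, with a summed level of 31750 to 34690 CPM in scrambled control and 27930 to 32860 CPM in IFNγR1KO cells. Of 14 leukocyte markers, between 8 and 11 had no count in a library, Adgre1, Itgam, Cd3e, Cd3d, Siglech and Flt3 were among those with none in any, and the summed level of all 14 was 9.66 to 11.2 CPM in scrambled control and 9.23 to 11.7 CPM in IFNγR1KO cells, most of it from Csf1r.

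RefSeq promoters of GRCm38.p6 were found for 7 of 7 IRF genes, with a second start for Irf1 and for Irf8. The 250 bases before each start were searched on both strands for TTCNNNGAA, the core of a GAS, which reads the same on both strands, and for the core of an ISRE, GAAA, any 2 bases and GAAA again. A GAS match was found before the first start of 3 genes, Irf1, Irf2 and Irf8, and an ISRE match before that of Irf2. Of all 32851 promoters of this length, 7.02% held the GAS letters and 2.98% the ISRE letters. Counted by gene, with any of its promoters, these were 8.13% and 3.46% of 27025 genes. The promoters with a match are shown because they hold a GAS beside a gene that fell (Irf1), a gene at the limit of detection (Irf8) and a gene with no adjusted p under 0.05 (Irf2), with the matched letters in capitals.
Irf1: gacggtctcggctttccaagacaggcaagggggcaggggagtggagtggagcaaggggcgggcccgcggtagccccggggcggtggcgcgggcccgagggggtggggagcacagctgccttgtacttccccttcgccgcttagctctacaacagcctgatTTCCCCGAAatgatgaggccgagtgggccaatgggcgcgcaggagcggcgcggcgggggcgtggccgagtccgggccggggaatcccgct
Irf8: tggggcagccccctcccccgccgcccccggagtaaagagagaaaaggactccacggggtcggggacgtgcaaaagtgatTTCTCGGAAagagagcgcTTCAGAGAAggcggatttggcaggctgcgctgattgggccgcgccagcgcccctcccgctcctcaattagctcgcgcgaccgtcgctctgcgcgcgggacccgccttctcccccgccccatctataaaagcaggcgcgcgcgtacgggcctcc
Irf2: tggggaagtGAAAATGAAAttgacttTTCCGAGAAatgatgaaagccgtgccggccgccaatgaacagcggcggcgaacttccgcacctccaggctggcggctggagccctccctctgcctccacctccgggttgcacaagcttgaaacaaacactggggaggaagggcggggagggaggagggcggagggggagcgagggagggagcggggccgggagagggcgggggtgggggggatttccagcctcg
The Irf1 sequence is chr11:53769764-53770013 and the Irf8 sequence chr8:120736108-120736357, and both end at the base before the first base of the gene in GENCODE M21. The Irf2 sequence is chr8:46739495-46739744, and all 3 are on the plus strand. The match of Irf1 covers bases 90 to 82 before the start, those of Irf8 bases 171 to 163 and 153 to 145, and in Irf2 the ISRE match covers bases 241 to 232 and the GAS match bases 224 to 216, so that no matches overlap. No match was found before the starts of Irf3, Irf4, Irf5 and Irf7 or before the second starts, which says only that these letters are not in these windows.

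**Figure D1:**
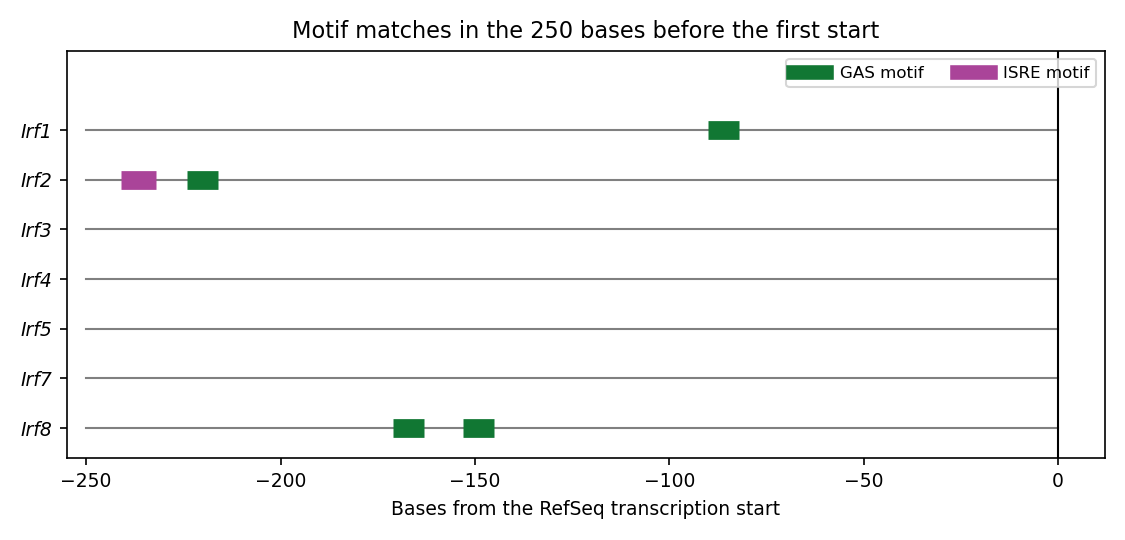
Matches to the GAS core (TTCNNNGAA, green) and the ISRE core (GAAA, any 2 bases, GAAA; purple) along the 250 bases before the first RefSeq start of each IRF gene, with the distance to the start in bases on the x axis. Irf1 has a single GAS match at 90 bases, Irf8 has a pair at 171 and 153 bases, Irf2 has both elements at 241 and 224 bases, and the other 4 genes have none.

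Irf1 (ENSMUSG00000018899.16, chromosome 11 of GRCm38 from 53770014 to 53778374), which encodes the activator of the IFN-γ response, had 255, 286 and 289 counts in scrambled control libraries. It had 116, 138 and 148 counts in IFNγR1KO libraries. After scaling for depth these are 27.7, 28.5 and 27.9 CPM against 16.5, 18.7 and 20.8 CPM. All IFNγR1KO libraries were thus below all scrambled control libraries, as in 16.6% of all genes tested. The means were 28.02 ± 0.395 CPM and 18.7 ± 2.16 CPM (SD, n = 3 each), and the log2 fold change was -0.59 (standard error, SE, 0.15; 95% interval -0.91 to -0.26; adjusted p = 0.0203 by the quasi-likelihood test of edgeR, Benjamini-Hochberg adjusted over 13642 genes). Of all genes tested, 15.3% had an adjusted p under 0.05, 7.73% as higher and 7.62% as lower in IFNγR1KO cells, and 1 of the 5 IRF genes tested did. The adjusted p of Irf1 was 0.0667 without scrambled control replicate 2, 0.109 without IFNγR1KO replicate 10 and 0.094 without IFNγR1KO replicate 11, while the log2 fold change stayed between -0.67 and -0.51 over the 6 fits that left out 1 library. The scrambled control libraries varied by 1.41% around their mean, less than the 6.01% that counting error alone gives at this depth.

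Irf2 (ENSMUSG00000031627.9, chromosome 8 from 46739732 to 46847458) encodes a factor that binds the same element as IRF1 and antagonises it. Its level was 9.99, 10.2 and 9.57 CPM in scrambled control and 8.24, 6.23 and 10.5 CPM in IFNγR1KO libraries. The groups overlapped, since IFNγR1KO replicate 12 was above every scrambled control library. The log2 fold change was -0.25, with a 95% interval from -0.71 to 0.21 (adjusted p = 0.479 from edgeR). The counts of Irf1 were 2.77, 2.78 and 2.92 times those of Irf2 in scrambled control libraries and 2.00, 3.00 and 1.97 times in IFNγR1KO libraries, a ratio that does not depend on depth. The log2 ratio was 1.497 ± 0.0425 in scrambled control and 1.19 ± 0.343 in IFNγR1KO cells (SD, n = 3 each), and the groups overlapped (two-sided exact permutation test, p = 0.4, where 3 libraries against 3 cannot go below 0.1). A fall of Irf1 relative to Irf2 was therefore not shown, with IFNγR1KO replicate 11 at the highest ratio of all 6 libraries, and the difference in log2 ratio of -0.31 was -0.51 without that library.

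Irf8 (ENSMUSG00000041515.10, chromosome 8 from 120736358 to 120756694), a lineage factor of macrophages and dendritic cells that IFN-γ induces in many cell types, had 8, 9 and 8 counts in scrambled control and 0, 0 and 1 in IFNγR1KO libraries. Irf7 (ENSMUSG00000025498.15, chromosome 7 from 141262706 to 141266481), the inducible factor that amplifies type I interferon production, had 7, 11 and 5 counts in scrambled control and 0, 0 and 1 in IFNγR1KO libraries. The groups did not overlap for either gene, which with Irf1 makes 3 of 7 IRF genes, all lower. Among the genes that passed the filter, which Irf7 and Irf8 did not, 16.6% were apart in that direction and 32.6% in either, so the shares are over different sets of genes. For both Irf7 and Irf8 the single count came from IFNγR1KO replicate 12. Both genes were removed by the filter on low counts before the test. The totals of 25 and 1 counts for Irf8 correspond to 0.844 and 0.0464 CPM, a ratio of 18.2 with a 95% interval from 2.98 to 746. For Irf7 the totals of 23 and 1 give 0.777 and 0.0464 CPM, a ratio of 16.7 with an interval from 2.72 to 689. These are exact binomial intervals of pooled counts that cover counting error only. Over the libraries, the two-sided exact permutation test gave p = 0.1 for each gene, the smallest p that this design allows. Without the filter edgeR gave an adjusted p of 0.00506 for Irf8 and 0.00965 for Irf7 among 23337 genes, and DESeq2's independent filtering left both without an adjusted p (unadjusted p = 0.00492 and 0.00763). In bulk RNA, a lower level in each cell and fewer cells with the transcript cannot be told apart.

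Irf3 (ENSMUSG00000003184.15, chromosome 7 from 44997648 to 45002848), which encodes the constitutive factor that TBK1 phosphorylates to switch on Ifnb1, was at 48.5, 43.6 and 34.0 CPM in scrambled control and 44.6, 44.0 and 40.9 CPM in IFNγR1KO libraries. All IFNγR1KO libraries lay inside the range of the scrambled control. The log2 fold change was 0.04 with a 95% interval from -0.29 to 0.37 (adjusted p = 0.899 from edgeR), and its sign turned, to -0.09, without scrambled control replicate 3. Irf7 counts were 0.0157, 0.0251 and 0.0142 times those of Irf3 in scrambled control libraries and 0, 0 and 0.00344 times in IFNγR1KO libraries. The inducible factor was thus at most a few hundredths of the constitutive one in counts, and lower in every IFNγR1KO library (exact permutation, two-sided, p = 0.1, which is the limit of this design, and 0.2 after adjustment over the 2 ratios tested).

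Irf5 (ENSMUSG00000029771.12, chromosome 6 from 29526625 to 29541871) encodes a factor that acts downstream of Toll-like receptors and MYD88 to induce inflammatory cytokines in myeloid cells. It was at 29.1, 24.8 and 32.9 CPM in scrambled control and 28.1, 28.6 and 26.7 CPM in IFNγR1KO libraries, which again lay inside the range of the controls. The log2 fold change was -0.06 with a 95% interval from -0.38 to 0.27 (adjusted p = 0.851 from edgeR), and it turned to 0.05 without scrambled control replicate 3. Exons of Tnpo3 on the other strand cover 14.1% of its exonic bases, a gene with a log2 fold change of 0.01 that was at 122 to 166 CPM in both groups, and the strand setting of the counting is not given in the sources used here. For the other IRF genes this share was 3.40% in Irf1, under Gm17334 (log2 fold change -0.69, adjusted p = 0.14 from edgeR), 2.56% in Irf3, under Bcl2l12, 1.19% in Irf7, under Phrf1, and 0 in Irf2, Irf4 and Irf8.

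Irf4 (ENSMUSG00000021356.10, chromosome 13 from 30749226 to 30766976), the member with a known role in melanocytes, had 13, 20 and 39 counts in scrambled control and 4, 16 and 7 in IFNγR1KO libraries. At 1.41, 1.99 and 3.77 CPM against 0.568, 2.17 and 0.984 CPM the groups overlapped, with IFNγR1KO replicate 11 above 2 of the scrambled control libraries. The log2 fold change of -0.94 (SE 0.49) had the widest interval of the tested IRF genes, from -2.01 to 0.13 (adjusted p = 0.232 from edgeR), and ran from -1.60 to -0.45 when single libraries were left out. Mitf, whose product works with IRF4 in melanocytes, averaged 206 ± 28.7 CPM in scrambled control against 267 ± 18.9 CPM in IFNγR1KO cells (SD, n = 3 each). Its log2 fold change was 0.37 (adjusted p = 0.109 from edgeR). The IFNγR1KO libraries were all above the scrambled control for Mitf, as in 16% of all genes tested. Tyr, the pigment gene that IRF4 and MITF drive, was at 671 ± 115 and 604 ± 117 CPM (SD, n = 3 each). The log2 fold change of Tyr was -0.15 (adjusted p = 0.645 from edgeR).

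**Figure D2:**
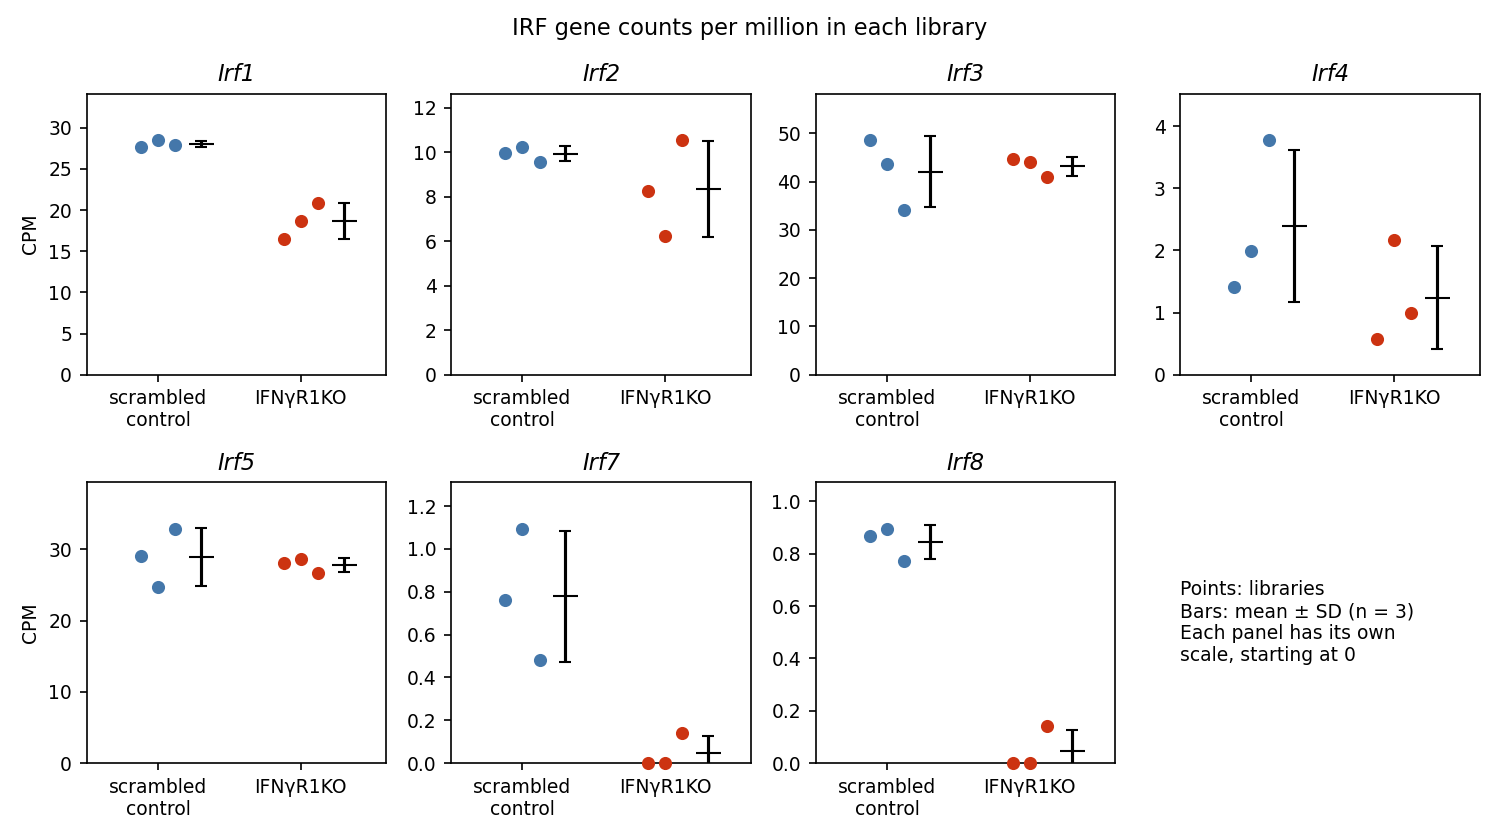
CPM of each IRF gene (y axis, from 0, with a scale of its own per panel) in the 3 scrambled control (blue) and 3 IFNγR1KO libraries (red), with mean ± SD beside the points. Irf1 falls from 28.02 to 18.7 CPM with no overlap, Irf7 and Irf8 drop to 0, 0 and 0.141 CPM, and the groups overlap for Irf2, Irf3, Irf4 and Irf5.

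**Figure D3:**
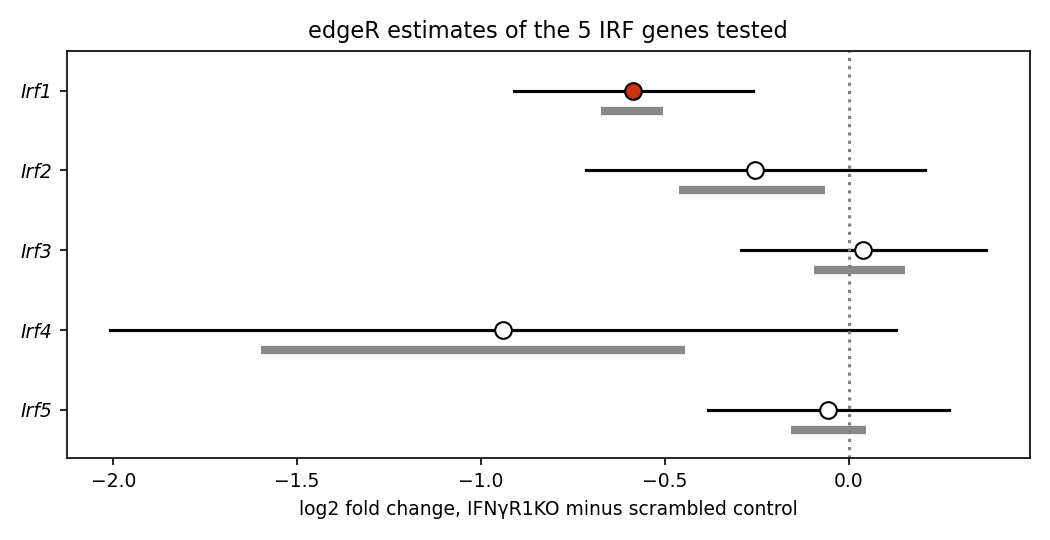
Log2 fold changes of the 5 IRF genes that passed the filter on low counts (x axis; circles, filled where the adjusted p is under 0.05), with 95% intervals as black lines and, as grey bars, the range over the 6 fits that each left out 1 library. The interval of Irf1 ends at -0.26, those of the other 4 include 0, and the grey bars of Irf3 and Irf5 cross 0.

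Of all 7 IRF genes, 5 passed the filter, and Irf4 did so mainly through the scrambled control libraries. None was a differentially expressed gene (DEG) by the thresholds of the study, which add to the adjusted p a log2 fold change beyond 1 in either direction, against 5.2% of all genes tested (3.25% higher and 1.96% lower), and the unadjusted edgeR p was under 0.05 for Irf1 alone. DESeq2 also called no IRF gene a DEG, and its adjusted p was 0.0161 for Irf1. The median log2 fold change of the 5 tested genes was -0.25, where that of all genes tested was 0.00 to 2 decimals.

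Per kilobase of exon, the scale on which different genes can be compared, the order in scrambled control cells was Irf3 at 12.2 ± 2.14, Irf5 at 9.95 ± 1.39 and Irf1 at 7.05 ± 0.0994 CPM per kilobase (SD, n = 3 each). Irf2 followed at 1.34, Irf4 at 0.487, Irf7 at 0.206 and Irf8 at 0.120 CPM per kilobase. The libraries of Irf3 and Irf5 overlapped, as did those of Irf4 and Irf7, and all other neighbours in this order were apart. In IFNγR1KO cells the order was the same, at 12.6, 9.57, 4.69, 1.13, 0.253, 0.0124 and 0.00664 CPM per kilobase, with an overlap only between Irf7 and Irf8. The order rests on the length used. Over the longest protein-coding transcript in place of all exons, Irf1 was at 13.1 and Irf5 at 12.9 CPM per kilobase in scrambled control, with overlapping libraries. On that length Irf3 was apart from the next gene in scrambled control. Irf7 and Irf8 overlapped there, at 0.216 to 0.489 and 0.2715 to 0.3145 CPM per kilobase. Irf1 made up 22.5% ± 1.26 of the summed RNA of the 7 genes per length in scrambled control and 16.6% ± 1.96 in IFNγR1KO cells (SD, n = 3 each), with ranges of 21.1% to 23.4% and 14.8% to 18.7%. The share of Irf3 was 38.8% ± 5.62 and 44.5% ± 1.92 (SD, n = 3 each), with ranges that overlapped.

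**Figure D4:**
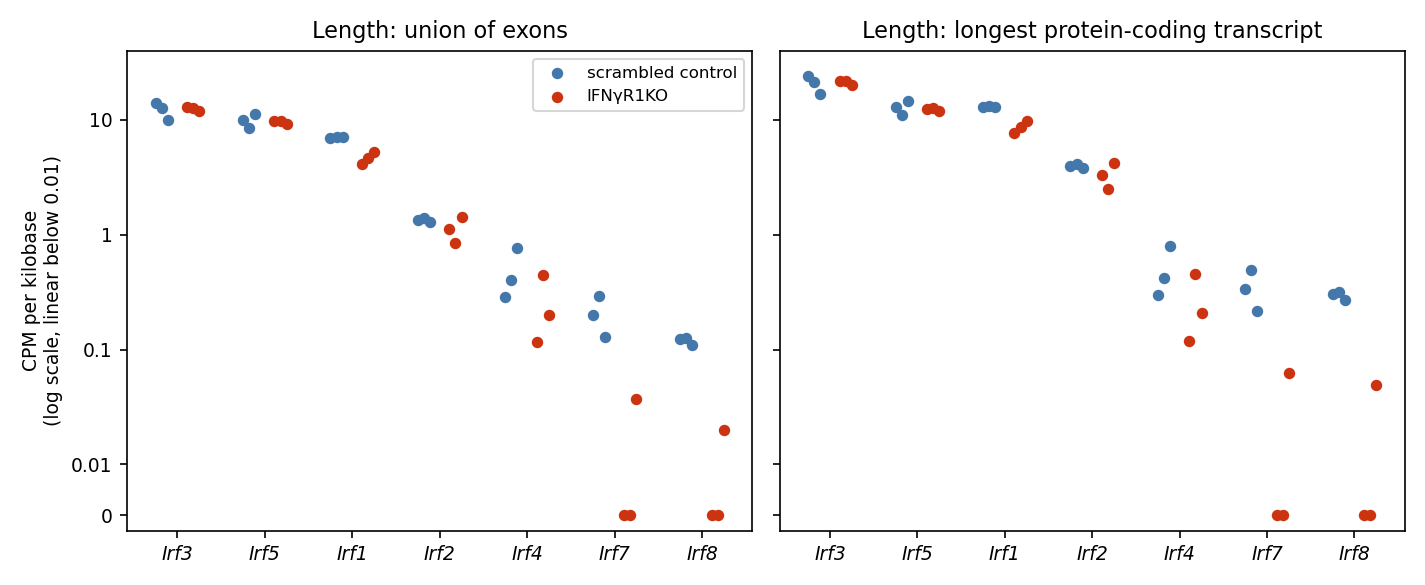
CPM per kilobase (y axis, log scale above 0.01 and linear below) of the IRF genes in scrambled control (blue) and IFNγR1KO libraries (red), over all exons (left) and over the longest protein-coding transcript (right). Irf3, Irf5 and Irf1 lie above the others in both groups, Irf7 and Irf8 are at 0 in 2 IFNγR1KO libraries, and Irf1 and Irf5 of scrambled control cells overlap only on the right.

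The protein-coding genes whose log2 CPM followed Irf1 most closely over the 6 libraries, among those with a mean of at least 5 CPM, were Pml, Lrp8 and Melk, with Pearson's r of 0.999, 0.998 and 0.997. These 6 points share their groups and library depths, and 308 of 9901 genes compared had an r above 0.95. Pml, which encodes the scaffold of PML nuclear bodies and is itself interferon-inducible, was at 40.9, 41.4 and 42.0 CPM in scrambled control and 15.1, 18.8 and 24.2 CPM in IFNγR1KO libraries. It shares with Irf1 the order of the IFNγR1KO libraries, in which replicate 10 was lowest and replicate 12 highest. Pml, Lrp8 and Melk were picked by their correlation with Irf1 over these same libraries. A shared order and a fall in IFNγR1KO cells therefore come with the choice, and the adjusted p-values below are a description only. Lrp8, a lipoprotein receptor, fell from 67.6 ± 1.18 to 28.1 ± 5.97 CPM (SD, n = 3 each; adjusted p = 0.000355 from edgeR). Melk, a mitotic kinase, fell from 48.5 ± 2.23 to 29.99 ± 3.52 CPM (SD, n = 3 each; adjusted p = 0.0061 from edgeR).

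Genes around the IRFs were counted from 5 lists written from general knowledge, but with earlier results of these data known. Their counts are therefore a description. They are given beside the 7.73% of all genes tested that were higher and the 7.62% that were lower. In the list of interferon receptor and STAT genes, which act upstream of Irf1, 13 of 14 genes were tested, 0 were higher and 1 was lower in IFNγR1KO cells, and the median was -0.11 on the log2 scale, so that the list was close to the 7.62% of all genes in that direction. Socs3, a feedback inhibitor of JAK kinases, fell from 11.7, 13.9 and 14.5 CPM to 7.53, 6.64 and 8.44 CPM. Its log2 fold change was -0.83 (SE 0.19, adjusted p = 0.011, edgeR), and the adjusted p was 0.0728 without IFNγR1KO replicate 11. Irf9, the IRF of the complex that binds the ISRE after type I interferon, had a log2 fold change of 0.10 (adjusted p = 0.775 from edgeR). Of the kinases and adaptors that activate IRF3, IRF5 and IRF7, 18 of 19 were tested, 0 were higher and 1 was lower, where 7.73% and 7.62% of all genes were, and the median was 0.05. The gene that was lower was Tirap, the adaptor that brings MYD88 to Toll-like receptors, at 13.1, 9.35 and 16.5 CPM against 6.25, 7.86 and 8.997 CPM. Its adjusted p of 0.0489 from edgeR became 0.0505 with DESeq2. It was above 0.05 in 4 of the 6 fits that left out 1 library, where it reached 0.177. These were the fits without scrambled control replicate 1 or 3, or IFNγR1KO replicate 10 or 11. Genes on the other strand cover 9.84% of the exonic bases of Tirap.

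Among 12 partner factors of the IRFs, 11 were tested, 1 was higher and 2 were lower, beside 15.3% of all genes in either direction, with a median log2 fold change of -0.10. Batf and Batf3, AP-1 family members that bind composite elements with IRF4 and IRF8, both fell. Batf was at 16.7, 15.02 and 11.2 CPM in scrambled control and 6.82, 5.69 and 4.78 CPM in IFNγR1KO libraries, a log2 fold change of -1.31 (SE 0.22, adjusted p = 0.00203, edgeR). Batf3 was at 3.37, 3.98 and 3.77 CPM against 1.42, 1.63 and 1.41 CPM, also a log2 fold change of -1.31 (SE 0.29, adjusted p = 0.00964, edgeR). Irf2bp2, which encodes a corepressor that binds IRF2, rose from 32.0, 34.5 and 37.0 CPM to 63.1, 63.5 and 73.5 CPM. Its log2 fold change was 0.95 (SE 0.14, adjusted p = 0.000785, edgeR), and an antisense gene covers 20.5% of its exons. These 3 genes kept an adjusted p under 0.05 whichever library was left out. None of their groups overlapped, as in 32.6% of all genes tested in either direction. They were named for their adjusted p, so the lack of overlap is no separate result.

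Of 17 genes known as targets of IRF1, 10 were tested, 0 were higher and 2 were lower, beside 7.62% of all genes in that direction, with a median log2 fold change of -0.04. Gbp2, a guanylate-binding protein of the defence against intracellular microbes, was at 28.2, 22.2 and 20.7 CPM in scrambled control and 4.26, 5.69 and 8.15 CPM in IFNγR1KO libraries. It was lower by a factor of 3.91 (log2 fold change -1.97, SE 0.23, adjusted p = 0.000206, edgeR), and reads that it shares with similar Gbp genes may have been lost or split in the counting. Psmb8, a catalytic subunit of the immunoproteasome, was at 5.75, 6.17 and 5.90 CPM against 0.852, 0.542 and 1.41 CPM. It was lower by a factor of 6.31 (log2 fold change -2.66, SE 0.33, adjusted p = 0.000289, edgeR), with 14.7% of its exonic bases under an antisense gene. It passed the filter on low counts mainly through the scrambled control libraries, since it had 6, 4 and 10 counts in IFNγR1KO libraries. The other 8 tested genes of the list had log2 fold changes from -0.98 (Psmb9, adjusted p = 0.0617 from edgeR, no overlap between the groups) to 0.27 (Il18bp, adjusted p = 0.662 from edgeR), and DESeq2 gave 1 of them, B2m, an adjusted p of 0.0251. These 3 genes were named after their values were seen.

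Of 29 genes known to answer to IRF3, IRF7 or IRF9, listed as ISRE target genes, 21 were tested, and 4 were higher and 3 were lower, beside 7.73% and 7.62% of all genes, with a median log2 fold change of 0.08. Ccl5, a chemokine for T cells, rose from 1.09, 1.69 and 1.35 CPM to 8.67, 8.40 and 6.05 CPM (log2 fold change 2.47, adjusted p = 0.000166 from edgeR). It passed the filter on low counts mainly through the IFNγR1KO libraries, since it had 10, 17 and 14 counts in scrambled control. Ifit1, which binds viral RNA, rose from 1.85, 2.59 and 3.48 CPM to 16.2, 13.1 and 9.28 CPM (log2 fold change 2.27, adjusted p = 0.000286 from edgeR). Isg15, a ubiquitin-like modifier, rose from 5.97, 6.97 and 4.54 CPM to 16.8, 12.1 and 13.9 CPM (log2 fold change 1.29, adjusted p = 0.00197 from edgeR). Irf7 was at 0 or 1 counts in IFNγR1KO libraries and Irf9 had no adjusted p under 0.05. Whether any IRF has a part in these 3 rises was not tested, and RNA does not show the activity of the factors. Ifit1 belongs to a family of similar genes. The fourth gene called higher was Mx2, which GENCODE M21 types as a polymorphic pseudogene. Mx2 is outside the rule for named genes and had a log2 fold change of 1.23. Its adjusted p of 0.0484 from edgeR was 0.16 with DESeq2. Among the 6 fits that left out 1 library, it stayed under 0.05 only without IFNγR1KO replicate 12. Mx2 passed the filter through the IFNγR1KO libraries, since it had 11, 9 and 6 counts in scrambled control. In the other direction, Zbp1, a sensor of Z-form nucleic acids, fell from 24, 37 and 29 counts to 0, 1 and 6 (log2 fold change -3.17, adjusted p = 0.00367 from edgeR). It passed the filter through the scrambled control libraries, and its fitted fold change rests on 7 counts in IFNγR1KO cells, 6 of them in replicate 12. Cmpk2, a mitochondrial nucleotide kinase, fell by 1.12 and Herc6, the ligase for ISG15, fell by 0.78 on the log2 scale (adjusted p = 0.00455 and 0.0153 from edgeR). The call on Herc6 was lost without IFNγR1KO replicate 10 or 11, with an adjusted p of up to 0.0948. Another gene on the same strand covers 13.7% of the exonic bases of Herc6. Ifnb1, which encodes IFN-β and was named for that role outside the rule, had no count in any library. A low level is not excluded, since a library with an expected count of up to 3 can give 0.

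**Figure D5:**
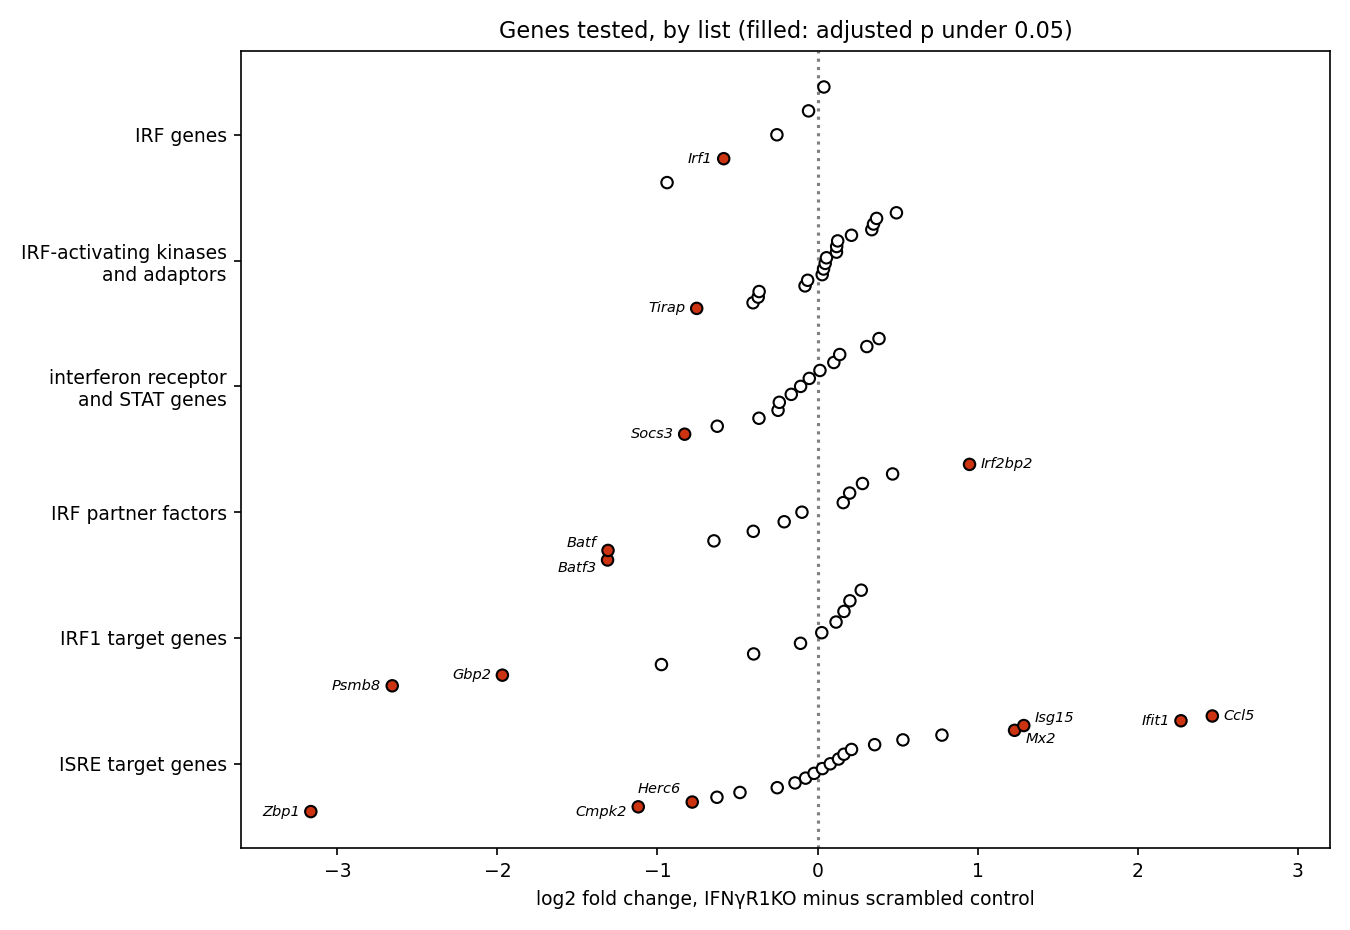
Log2 fold changes (x axis) of every tested gene of the IRF genes and of the 5 lists, one point per gene, filled and named where the adjusted p is under 0.05. Filled points lie on the left for the IRF1 target genes (Gbp2 and Psmb8) and on both sides for the ISRE target genes, from Zbp1 at -3.17 to Ccl5 at 2.47.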

How the data were processed

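RNA of 6 cultures of B16 cells was analysed, 3 scrambled control and 3 IFNγR1KO. The authors aligned paired-end, poly(A)-selected reads to GRCm38 with STAR 2.7.5a and counted reads with HTSeq 0.11.2, and the deposited tables, 1 per library, hold these counts without normalization. The annotation release and strand setting are not given in the sources used here. Between 46.9% and 47.7% of the listed reads fell on no gene and were left out. Symbols, positions and lengths came from GENCODE M21. In R 4.3.3, edgeR 4.0.16 was fitted to all genes (filterByExpr with a minimum count of 10, TMM, quasi-likelihood test, Benjamini-Hochberg adjustment). CPM use TMM-scaled totals, standard errors come from the fold change and F statistic, and fitted intervals are 95% intervals. DESeq2 1.42.0 was the first alternative. Scripts were tested on simulated data. Motifs were matched to RefSeq promoters. The ratio of Irf7 to Irf3 was planned on a log2 scale and was compared untransformed, since 2 libraries held no Irf7 count. The IRF genes and the lists were chosen with earlier results of these data known. Genes named outside the IRF family are those under an adjusted p of 0.05, at most the 3 smallest on each side of a list, the 3 most like Irf1 in pattern, the markers and genes with overlapping exons. Irf9, Mx2, Psmb9, Il18bp, B2m and Ifnb1 are named outside this rule. Replicates of a group differed by more than sampling noise (chi-square per degree of freedom 2.62 to 22.7), so none was merged. Some genes of the lists are not reported here by name.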

Additional observations from a re-analysis of the deposited data

How the results depend on the processing

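Irf1 stayed lower under every normalization, filter and test tried. With all libraries its adjusted p stayed under 0.05, but it was above 0.05 in 3 of the 6 fits without 1 library. Over all 6 of those fits the log2 fold change ran from -0.67 to -0.51. The number of IRF genes called lower was 0 to 1 over those fits, 0 at an adjusted p under 0.01 and 3 without a filter on low counts, where Irf7 and Irf8 enter the test and the number of lower DEGs went from 0 to 2. Leaving out scrambled control replicate 3 reversed Irf3 to -0.0933 and Irf5 to 0.0462, and the ranges over the 6 fits were -0.0933 to 0.1529 and -0.1579 to 0.0462; the cause was not tested. Of the IRF-activating kinases and adaptors, 0 were lower with DESeq2, with its size factors, with upper quartile factors and with a minimum count of 20, 1 was higher with the last 2 of these, and without 1 library 0 to 2 were lower and 0 to 1 higher. Of the interferon receptor and STAT genes, 1 was higher with upper quartile factors, which moved the median of all genes to 0.04, and without 1 library 0 to 1 were lower. The other list counts stayed within 1.5 times. With 0.5 added to each count, both ratios kept their direction. At this depth a gene at 0 to 3 counts per library, as Irf7 and Irf8 were in IFNγR1KO cells, has no measurable level. No paired analysis was run, because the labels give no pairing between the groups. Chi-square per degree of freedom was 22.73 and 20.41 for pairs with scrambled control replicate 3. It was 18.45 and 15.02 for pairs with IFNγR1KO replicate 12, against 9.25 and 2.62 for the remaining pair of each group. Whether these libraries share a step of preparation is not given and was not tested.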
